A study of Mus musculus with 6 samples.

Results

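Nuclear hormone receptors are transcription factors, most of which are switched by a small fat-soluble ligand. The genes described here are 31 of the 14327 genes in an expression table of mouse neurospheres. They were taken by gene symbol, as every numbered receptor of the NR0 to NR6 classes with a letter from a to f, together with the retinoid (Rar, Rxr), peroxisome proliferator-activated (Ppar), thyroid hormone (Thra, Thrb), estrogen (Esr), estrogen-related (Esrr) and vitamin D (Vdr) receptors and ROR-type orphan receptors such as Rorb. Nr4a1, an immediate early gene, was left out of the set, and the liver X receptors and the androgen receptor lie outside this symbol rule. Neurospheres are cell clusters that float in the dish and consist of stem cells and progenitors of the neural lineage, here from newborn hippocampus in medium with EGF and bFGF. RNA was sequenced from 3 libraries of mice labelled cKO, a conditional knockout of Slc22a17, and from 3 libraries of wild-type (WT) mice. Slc22a17 encodes a receptor for lipocalin 2, a protein that carries iron in complex with siderophores, and the study asks what its loss does to these cells. The sources used here give neither the Cre driver, the deleted part of the gene nor the sex of the mice, and do not say whether libraries of a group came from separate animals or cultures. The p-values below thus reflect only how these libraries scatter, and that scatter may be technical.

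Receptors of this family share a zinc-finger DNA-binding domain that reads short core motifs in DNA, often as a pair of motifs bound by a dimer. Retinoid X receptors are the common dimer partner of the retinoic acid, thyroid hormone, vitamin D, PPAR and liver X receptors, while steroid receptors work as homodimers. With ligand bound the receptors recruit coactivators, and several of them recruit corepressors without it. In the neural lineage the best known members are Nr2e1 (TLX), which keeps stem cells dividing, and Nr2f1 and Nr2f2 (COUP-TFI and COUP-TFII), which pattern the cortex and hippocampus and take part in the switch of progenitors towards glia.

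The promoters of 3 members are shown. Nr2f2 had the lowest p of the receptors tested, though no receptor passed the threshold used below. Nr2f1 is its paralog, and Rarb is a textbook direct target of retinoic acid. Each run is the 250 bases upstream of the most upstream promoter start listed for the gene (GRCm38.p6), 5′ to 3′ on the gene's own strand. That is the minus strand for all 3. For Rarb and Nr2f2 only 1 start was listed, and for Nr2f1 2. The RefSeq span of Rarb, 16430839 to 17082331, reaches further upstream, so its window lies inside the gene. GENCODE exon bases of Nr2f1 reach 78199757, so by that annotation the Nr2f1 window also lies inside its gene. The motifs searched on both strands were the receptor core motifs AGGTCA and AGTTCA, the spaced pair GTTCA, 5 bases, AGTTCA, the E-box CACGTG, the CCAAT box and the GC box GGGCGG. Capitals mark the matches, with the 5 spacer bases left in lower case.
Nr2f2 (chr7:70366747-70366996): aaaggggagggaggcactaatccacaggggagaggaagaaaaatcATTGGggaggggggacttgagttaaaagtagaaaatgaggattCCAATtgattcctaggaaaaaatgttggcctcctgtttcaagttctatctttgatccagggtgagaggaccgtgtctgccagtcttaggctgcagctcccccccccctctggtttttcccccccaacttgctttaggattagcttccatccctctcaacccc
Nr2f1 (chr13:78198874-78199123): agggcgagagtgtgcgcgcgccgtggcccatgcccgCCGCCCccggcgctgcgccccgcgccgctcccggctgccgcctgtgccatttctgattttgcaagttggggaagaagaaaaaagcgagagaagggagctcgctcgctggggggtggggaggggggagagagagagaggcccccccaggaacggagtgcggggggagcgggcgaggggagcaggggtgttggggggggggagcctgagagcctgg
Rarb (chr14:16575477-16575726): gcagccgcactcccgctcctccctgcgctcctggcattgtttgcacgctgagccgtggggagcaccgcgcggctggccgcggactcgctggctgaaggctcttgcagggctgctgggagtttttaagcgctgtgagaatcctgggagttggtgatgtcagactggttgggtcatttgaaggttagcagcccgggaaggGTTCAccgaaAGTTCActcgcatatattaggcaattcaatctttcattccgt

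The Rarb window held the spaced pair from position -52 to -37 relative to the listed start. The pair was in 0.0274% of the 32851 promoter windows searched. It is the form known from the Rarb promoter itself, so the match in Rarb was fixed in advance and is not a result. Its right arm is the core motif AGTTCA, which on its own was in 11.8% of windows. The Nr2f2 window held 2 CCAAT boxes, a motif of 33.8% of windows, and the Nr2f1 window 1 GC box, a motif of 32.7% of windows. The windows shown for these paralogous genes differed in base composition, with 50% G and C and 1 CG dinucleotide for Nr2f2 against 72.0% and 22 for Nr2f1. The median over all windows was 52.4% and 6. A match describes the letters only.

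In every library all 9 neural stem cell and radial glia markers listed were at or above 1 FPKM, the unit of the table (fragments per kilobase of transcript, scaled to the mapped fragments of the library). Slc22a17 itself was abundant in all libraries, at 164, 166 and 187 FPKM in those labelled cKO and at 181, 169 and 204 FPKM in WT (log2 fold change -0.097, SE 0.086, adjusted p = 0.707 in limma, exact permutation p = 0.5). The transcript named as the target was therefore not lost, and each direction below is one between libraries labelled cKO and WT libraries. The Y-linked transcripts Ddx3y and Eif2s3y together stood at 50.5, 43.8 and 51.2 FPKM in libraries labelled cKO, and at 0.10, 0.07 and 25.9 FPKM in WT replicates 1 to 3. Group and Y-linked share thus move together and cannot be told apart. With a term for that share in the limma model, the log2 fold change of Slc22a17 was -0.45 (adjusted p = 0.921). Against WT replicate 3 alone it was -0.24. No receptor gene described here lies on the X or Y chromosome.

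The receptors covered a wide range on the per-length FPKM scale. Of the 31 genes 5 averaged at least 20 FPKM over the 6 libraries, 11 lay from 5 to under 20 FPKM, 7 from 1 to under 5 FPKM and 8 under 1 FPKM. Thra, the thyroid hormone receptor alpha gene, was the highest with a mean of 94.7 FPKM and supplied 23.6% to 28.5% of the summed receptor FPKM in libraries labelled cKO and 25.1% to 26.3% in WT libraries. Next came Nr1d1 (33.8 FPKM), Nr2f1 (33.2 FPKM), Esrra (26.6 FPKM) and Nr2e1 (23.1 FPKM). The means of Nr1d1 and Nr2f1 differ by less than the spread between libraries. The 23 genes whose mean reached 1 FPKM were also at or above 1 FPKM in each library, and only they were tested. Of the other 8 genes 6 were below 1 FPKM throughout, and these were Esrrg, Nr6a1, Esr2, Rxrg, Pparg and Vdr. At the edge of the filter lay Nr3c2, just inside with a mean of 1.88 FPKM, and Esrrb, just outside with 0.955 FPKM.

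**Figure D1:**
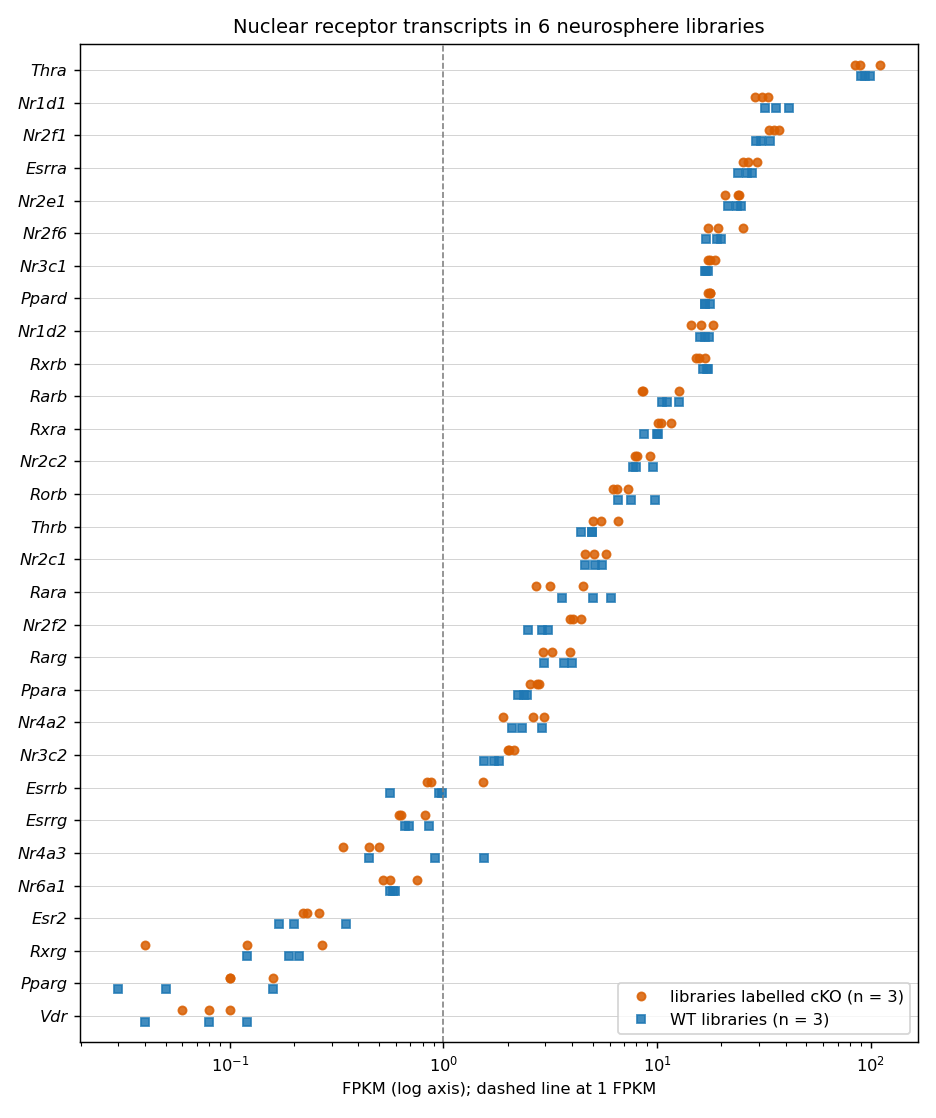
FPKM of the receptor genes named in the text (rows, ordered by mean, log axis) in the 3 libraries labelled cKO (circles) and the 3 WT libraries (squares). Thra stands alone near 94.7 FPKM, and 8 genes have means below the dashed line at 1 FPKM.

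No receptor gene passed the threshold of 0.05 on the adjusted p in limma, where 0.00862% of the 11596 tested genes passed as higher in the libraries labelled cKO and 0.0172% as lower. The lowest adjusted p of a receptor was 0.194, for Nr2f2. Of the 23, the higher receptors Nr2f2 and Nr2f1 (2 in all) and the lower Nr1d1 (1) had an unadjusted p under 0.05, beside 4.44% of all tested genes higher and 7.82% lower. The values of the groups did not overlap for 4 receptors, all higher (Nr2f2, Thrb, Nr3c2 and Ppara), beside 7.07% of all tested genes higher and 10.2% lower. With log2 values shifted to a common median this count was 7, with Nr2f1, Rxra and Nr3c1 added, where 9.94% of all tested genes were higher and 7.55% lower without overlap. Means were higher for 13 receptors and lower for 10, beside 44.5% of all tested genes higher and 55.5% lower, and log2 fold changes ran from -0.40 (Rara) to 0.42 (Nr2f2). Their median was 0.015 against -0.015 for all tested genes. The sum over the 31 genes was 358, 389 and 363 FPKM in libraries labelled cKO and 371, 378 and 361 FPKM in WT, so that the groups overlapped. In bulk libraries such as these, fewer cells of a type and less RNA per cell cannot be told apart.

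**Figure D2:**
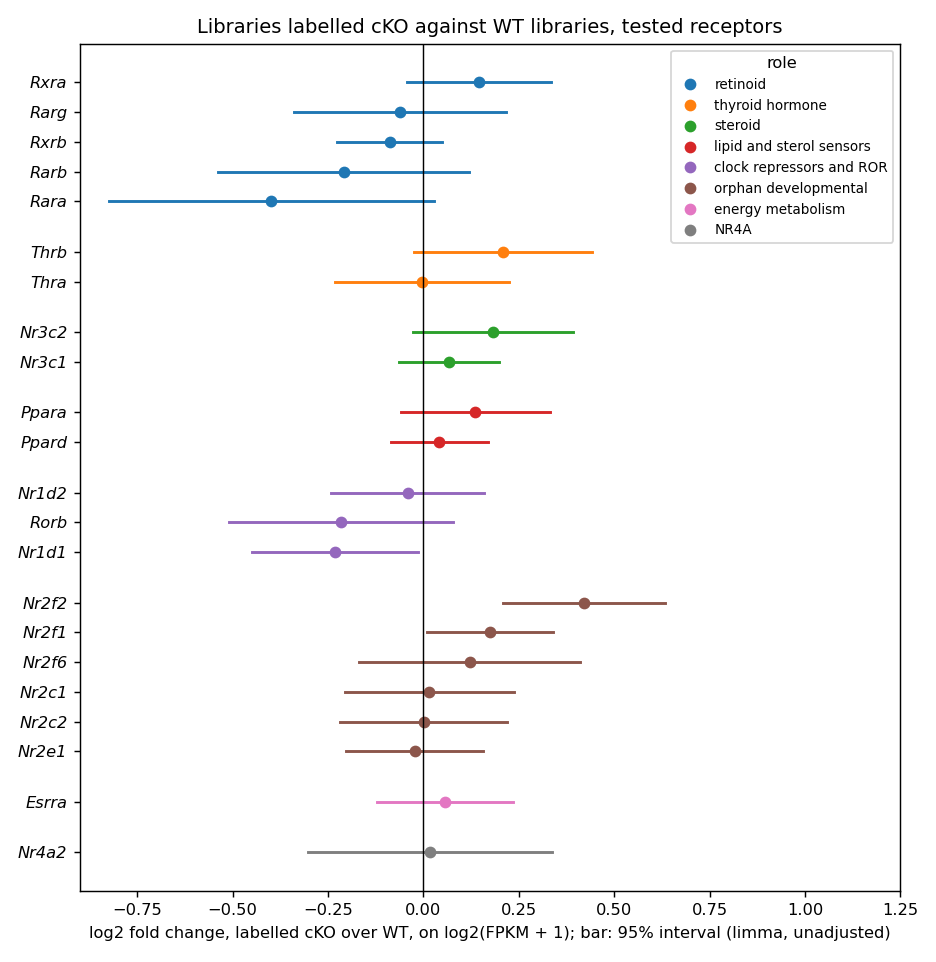
Log2 fold change (libraries labelled cKO over WT, x axis) of the tested receptors named in the text, with its 95% interval from limma, not adjusted for the number of genes, coloured by role. Only the intervals of Nr2f2, Nr2f1 and Nr1d1 leave out 0.

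The COUP-TF genes had higher means in libraries labelled cKO, and Nr2f2 had the lowest p of the receptors tested. Nr2f2 (chromosome 7, 70351946 to 70366746 in GRCm38), which in the forebrain also marks interneurons of caudal origin, was at 4.40, 3.91 and 4.03 FPKM in libraries labelled cKO and at 3.10, 2.49 and 2.88 FPKM in WT. Each library labelled cKO lay above each WT library. The means were 4.11 ± 0.26 (labelled cKO) and 2.82 ± 0.31 (WT) FPKM (SD, n = 3 each). The ratio was 1.46 and the log2 fold change 0.42, with a 95% interval of 0.21 to 0.63 (SE 0.093, adjusted p = 0.194). The exact two-sided permutation test of its 6 values gave p = 0.1, the smallest that 3 against 3 libraries can give. Against WT replicate 3 alone, the WT library with Y-linked transcripts, the log2 fold change was 0.40. It was 0.34 (adjusted p = 0.921) in a model with a term for the Y-linked share, the summed level of those transcripts. Within groups that share differs mainly through WT replicate 3. Here and below both settings thus lean on that library and are not separate checks.

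Nr2f1 (chromosome 13, 78188971 to 78198873), the more abundant paralog, was at 35.2, 33.4 and 37.1 FPKM in libraries labelled cKO and at 30.7, 28.9 and 33.8 FPKM in WT. Only WT replicate 3 and the replicate 2 labelled cKO overlapped. The means were 35.2 ± 1.89 (labelled cKO) and 31.1 ± 2.49 (WT) FPKM (SD, n = 3 each), and differed by 0.17 on the log2 scale (SE 0.072, adjusted p = 0.385), or by 0.055 against WT replicate 3 alone. After adjustment for the Y-linked share the sign turned (log2 fold change -0.13, adjusted p = 0.951). Nr2f1 stood at 7.99, 8.53 and 9.22 times the level of Nr2f2 in the libraries labelled cKO and at 9.89, 11.6 and 11.8 times in WT, without overlap. GENCODE places a noncoding transcript on the opposite strand over 643 of the 8625 exon bases of Nr2f2 and over 123 of the 5093 of Nr2f1, and the sources used here do not say whether reads were counted by strand.

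**Figure D3:**
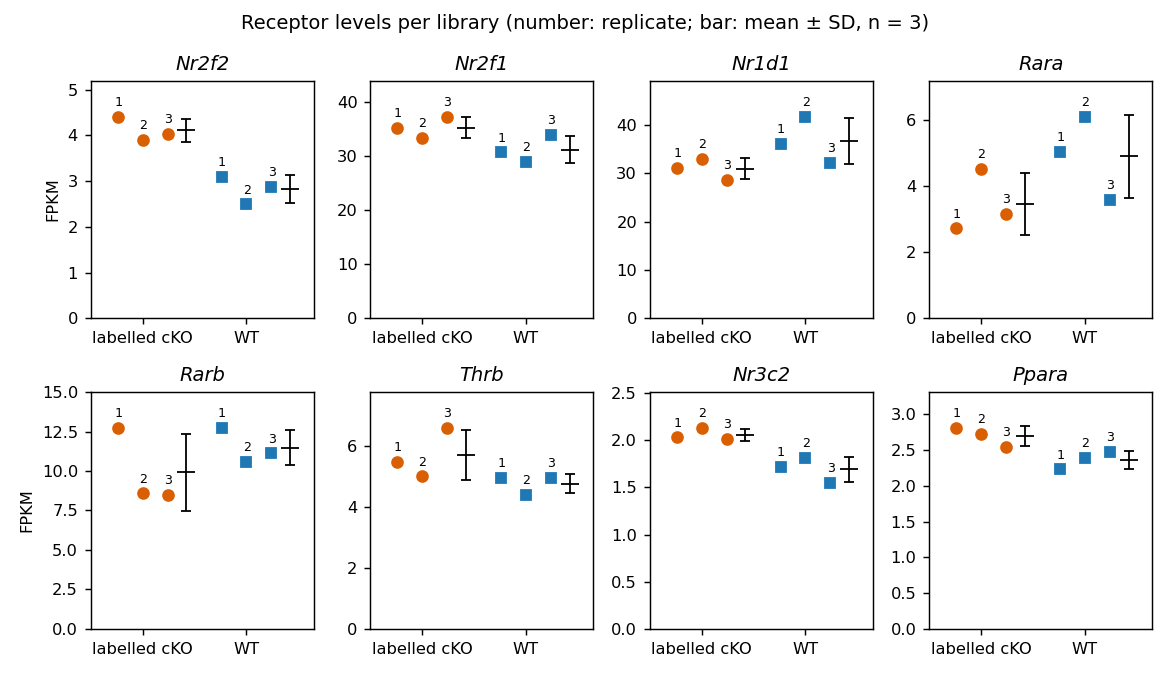
FPKM of 8 receptors in each library, with the replicate number beside each point and the mean ± SD (n = 3) as a bar at the right of each group. Nr2f2, Thrb, Nr3c2 and Ppara do not overlap between groups, while Nr2f1, Nr1d1, Rara and Rarb do.

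The other orphan receptors of neural development overlapped between groups. Nr2e1, which represses cell cycle inhibitors in adult neural stem cells, was at 20.7, 23.95 and 24.1 FPKM in libraries labelled cKO and at 21.6, 24.7 and 23.6 FPKM in WT. Its log2 fold change of -0.023 had a 95% interval of -0.20 to 0.16 (adjusted p = 0.940), and it was 0.0013 with median scaling. Nr2f6, a further COUP-TF-related repressor, averaged 20.6 ± 4.10 (labelled cKO) and 18.7 ± 1.596 (WT) FPKM (adjusted p = 0.758), with the highest value, 25.2 FPKM, in the replicate 3 labelled cKO. Its log2 fold change of 0.12 was -0.15 after adjustment for the Y-linked share. Ocel1, which shares 54.4% of the annotated exon bases of Nr2f6 from the opposite strand, was also highest in that library, at 2.43 FPKM against 0.96 and 1.82 FPKM in the other libraries labelled cKO and 0.79 to 1.16 FPKM in WT. Its part in the value of Nr2f6 was not tested. The testicular receptors Nr2c1 and Nr2c2, which repress through direct repeats of the core motif, averaged 5.15 and 8.39 FPKM in libraries labelled cKO and 5.08 and 8.40 FPKM in WT (adjusted p = 0.970 for Nr2c1 and 0.999 for Nr2c2). Mrps25, on the opposite strand, covers 30.7% of the exon bases of Nr2c2 and averaged 13.5 (labelled cKO) and 13.2 (WT) FPKM. Nr6a1, the germ cell nuclear factor of early embryos, was at 0.52 to 0.75 FPKM in libraries labelled cKO and 0.56 to 0.59 FPKM in WT.

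Nr1d1, Nr1d2 and Rorb, of the REV-ERB and ROR group, had means below WT in libraries labelled cKO, and none passed the threshold. These proteins compete for the same DNA motif, the REV-ERBs as heme-binding repressors and the RORs as activators. Nr1d1 (REV-ERB alpha, chromosome 11, 98767932 to 98775377) was at 31.1, 33.0 and 28.7 FPKM in libraries labelled cKO and at 36.1, 41.6 and 32.1 FPKM in WT. Only WT replicate 3 and the replicate 2 labelled cKO overlapped. The means were 30.9 ± 2.15 (labelled cKO) and 36.6 ± 4.75 (WT) FPKM (SD, n = 3 each), and differed by -0.23 on the log2 scale (SE 0.095, adjusted p = 0.382). The difference shrank to -0.056 against WT replicate 3 alone and took the opposite sign after adjustment for the Y-linked share (0.20, adjusted p = 0.929).

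Nr1d2 (REV-ERB beta) had means of 16.3 ± 1.98 (labelled cKO) and 16.7 ± 0.76 (WT) FPKM (adjusted p = 0.895, log2 fold change -0.041). Nr1d1 stood at 1.70, 2.06 and 1.99 times the level of Nr1d2 in the libraries labelled cKO and at 2.16, 2.38 and 2.02 times in WT. Rorb, a receptor of cortical layer and retinal development, was at 6.51, 7.28 and 6.19 FPKM against 7.55, 9.82 and 6.57 FPKM in WT (log2 fold change -0.22, adjusted p = 0.541), where WT replicate 2 was the highest. Its sign also turned after adjustment for the Y-linked share (0.35), as did that of Nr1d2 (0.097). Among the clock genes that REV-ERB and ROR proteins share targets with, 6 of 15 had higher and 9 lower means, none passed (lowest adjusted p = 0.501), and none had non-overlapping groups. Their median log2 fold change of -0.052 was 0.45 after adjustment for the Y-linked share and 0.12 against WT replicate 3 alone. Per1, a repressor of the clock, averaged 16.9 (labelled cKO) and 20.03 (WT) FPKM, Bhlhe40, another clock repressor, 45.0 (labelled cKO) and 58.3 (WT) FPKM, the PAR-domain activator Hlf 10.5 (labelled cKO) and 11.8 (WT) FPKM, and its competitor Nfil3 2.70 (labelled cKO) and 4.74 (WT) FPKM.

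Retinoid receptors had mostly lower means, in 4 of 5 tested genes (median log2 fold change -0.089), where 55.5% of all tested genes were lower. The median was -0.16 without WT replicate 3, -0.16 with library weights and -0.013 after adjustment for the Y-linked share. Rara (chromosome 11, 98927800 to 98974942), the broadly expressed retinoic acid receptor, was at 2.71, 4.51 and 3.15 FPKM in libraries labelled cKO and at 5.01, 6.07 and 3.58 FPKM in WT. The replicate 2 labelled cKO lay above WT replicate 3. The means were 3.46 ± 0.94 (labelled cKO) and 4.89 ± 1.25 (WT) FPKM (SD, n = 3 each). The ratio was 0.707 and the log2 fold change -0.40 (SE 0.19, adjusted p = 0.438), the largest decrease in mean among the receptors tested. It rested on WT replicates 1 and 2, being -0.060 against WT replicate 3 alone, and it was 0.52 after adjustment for the Y-linked share (adjusted p = 0.921).

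Rarb, with a listed promoter holding the spaced core motifs given above, was at 12.7, 8.58 and 8.47 FPKM in libraries labelled cKO. It was at 12.7, 10.6 and 11.1 FPKM in WT. The replicates 2 and 3 labelled cKO were below each WT library, while replicate 1 was level with the highest (log2 fold change -0.21, SE 0.14, adjusted p = 0.605). GENCODE exons of Top2b on the opposite strand cover 34.1% of the exon bases of Rarb, and Top2b averaged 30.1 (labelled cKO) and 31.1 (WT) FPKM. Rarg averaged 3.34 (labelled cKO) and 3.53 (WT) FPKM (log2 fold change -0.061, adjusted p = 0.886), with the opposite sign (0.46) after adjustment for the Y-linked share. Of the dimer partners, Rxra stood at 10.7 ± 0.83 (labelled cKO) and 9.59 ± 0.78 (WT) FPKM (adjusted p = 0.512, log2 fold change 0.15, or -0.013 after that adjustment and 0.084 without WT replicate 2), and Rxrb 15.9 ± 0.76 (labelled cKO) and 17.0 ± 0.44 (WT) FPKM (log2 fold change -0.089, adjusted p = 0.603). Rxrg was at 0.04 to 0.27 FPKM in libraries labelled cKO and 0.12 to 0.21 FPKM in WT.

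Genes that carry, make or answer to retinoids were described beside the receptors. Of 23 listed, 13 had a row in the table and 10 were tested, with 4 higher and 6 lower means and a median of -0.096, which was 0.0049 among genes of at least 5 FPKM. None passed, and 2 were lower without overlap, beside 10.2% of all tested genes. Rarres2, the retinoid-responsive gene of the chemokine-like protein chemerin, averaged 2.80 (labelled cKO) and 4.61 (WT) FPKM (adjusted p = 0.194). Fabp5, a fatty acid-binding protein that can carry retinoic acid, averaged 161 (labelled cKO) and 188 (WT) FPKM, and the retinol dehydrogenase Rdh14 16.8 (labelled cKO) and 15.3 (WT) FPKM. Of these, Rarres2 was below WT in all libraries labelled cKO, without passing the threshold.

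The thyroid hormone receptor genes encode the receptors through which the active hormone acts on brain cells. Thra (chromosome 11, 98740776 to 98769006) was at 84.4, 111 and 89.2 FPKM in libraries labelled cKO and at 93.9, 99.3 and 90.3 FPKM in WT. The groups overlapped, with means of 94.9 ± 14.2 (labelled cKO) and 94.5 ± 4.499 (WT) FPKM (SD, n = 3 each). The log2 fold change was -0.0036, with a 95% interval of -0.23 to 0.22 (SE 0.10, adjusted p = 0.994), and it was 0.021 with median scaling. Thrb was at 5.48, 5.00 and 6.59 FPKM in libraries labelled cKO and at 4.95, 4.39 and 4.96 FPKM in WT (log2 fold change 0.21 with SE 0.10 and adjusted p = 0.459). The groups did not overlap, but by a narrow margin between 5.00 FPKM in the replicate 2 labelled cKO and 4.96 FPKM in WT replicate 3, and the log2 fold change was 0.0076 after adjustment for the Y-linked share. Thra and Nr1d1 lie tail to tail on opposite strands of chromosome 11 and share 263 annotated exon bases (98768157 to 98768419), which is 5.70% of the exon bases of Thra and 8.55% of those of Nr1d1. Without knowledge of strand, reads from this stretch cannot be assigned to either gene.

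The genes that handle thyroid hormone or answer to it had mostly lower means, in 8 of 10 tested with a median of -0.19, beside 55.5% of all tested genes. That median was -0.073 after adjustment for the Y-linked share and -0.29 with library weights. None of the 10 passed, and 4 were lower without overlap, beside 10.2% of all tested genes. Dio2, the deiodinase that makes active hormone in glia, was at 8.16, 7.22 and 8 FPKM in libraries labelled cKO and at 11.2, 9.93 and 9.05 FPKM in WT (log2 fold change -0.33, adjusted p = 0.235). The hormone carrier Slco1c1 was at 1.66, 4.30 and 3.14 FPKM against 11.5, 12.7 and 4.13 FPKM in WT, so that WT replicate 3 lay below the replicate 2 labelled cKO, at 4.13 FPKM (log2 fold change -1.31, adjusted p = 0.244). Nrgn, a calmodulin-binding protein, averaged 2.58 (labelled cKO) and 4.42 (WT) FPKM (adjusted p = 0.238). Mbp, a myelin protein, averaged 38.8 (labelled cKO) and 60.7 (WT) FPKM (adjusted p = 0.326). Mbp also belongs to the 8 oligodendrocyte lineage markers listed, whose summed level was 1201 to 1465 FPKM in libraries labelled cKO and 1247 to 1715 FPKM in WT, mostly from Olig1 and Olig2. All 8 were at or above 1 FPKM in each library, and their part in this list was not tested.

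Steroid receptors were represented by the corticosteroid receptors. Nr3c1, the glucocorticoid receptor, was at 18.7, 17.7 and 17.3 FPKM in libraries labelled cKO and at 16.8, 17.3 and 17.0 FPKM in WT, a log2 fold change of 0.067 (95% interval -0.064 to 0.20, adjusted p = 0.695). Nr3c2, the mineralocorticoid receptor, was at 2.03, 2.13 and 2.01 FPKM against 1.72, 1.81 and 1.55 FPKM in WT. Each library labelled cKO was above each WT library (a ratio of 1.22, with log2 fold change 0.18 and SE 0.092, at an adjusted p = 0.466). Esr2, the estrogen receptor beta, was at 0.22 to 0.26 FPKM in libraries labelled cKO and 0.17 to 0.35 FPKM in WT.

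Of the glucocorticoid targets and receptor chaperones tested, 10 of 20 had higher and 10 lower means, with a median of 0.0022. This median was 0.27 after adjustment for the Y-linked share, 0.15 against WT replicate 3 alone, 0.066 without the replicate 3 labelled cKO and 0.059 without WT replicate 2. None passed, while 4 were higher and 2 lower without overlap, beside 7.07% and 10.2% of all tested genes. Dusp1, a phosphatase that is also an immediate early gene, had means of 6.11 (labelled cKO) and 10.7 (WT) FPKM (adjusted p = 0.194, log2 fold change -0.70). Sult1a1, a sulfotransferase, averaged 2.00 (labelled cKO) and 0.903 (WT) FPKM (adjusted p = 0.218), and Hsd11b1, which regenerates active glucocorticoid, 2.80 (labelled cKO) and 2.00 (WT) FPKM (adjusted p = 0.235). Glul, the glutamine synthetase of astrocytes, averaged 1215 (labelled cKO) and 916 (WT) FPKM (adjusted p = 0.257). The summed level of 6 astrocyte markers was 3093 to 3241 FPKM in libraries labelled cKO and 2347 to 3483 FPKM in WT, with all 6 at or above 1 FPKM in each library and Gfap supplying most of the sum. Of the other astrocyte markers Gjb6, a gap junction protein, was at 21.1 to 24.7 FPKM in libraries labelled cKO and 12.2 to 15.4 FPKM in WT, and the glutamate transporter Slc1a2 at 205 to 232 FPKM in libraries labelled cKO and 166 to 199 FPKM in WT. Both were higher without overlap, as was Glul, and neither passed the threshold (adjusted p = 0.103 for Gjb6 and 0.303 for Slc1a2). S100b averaged 8.36 (labelled cKO) and 6.13 (WT) FPKM, in overlapping groups. Aqp4 and Aldh1l1, also among the 6, had lower means in libraries labelled cKO, with overlap. Aqp4 averaged 161 (labelled cKO) and 176 (WT) FPKM, and Aldh1l1 316 (labelled cKO) and 323 (WT) FPKM. The part of these markers in the value of Glul was not tested.

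Of the fatty acid sensors Ppard, the broadly expressed PPAR, had the highest level. It was at 17.4, 17.6 and 17.7 FPKM in libraries labelled cKO and at 17.6, 16.8 and 16.7 FPKM in WT, the smallest spread within groups of any tested receptor (SD 0.030 on the log2 scale, log2 fold change 0.042, adjusted p = 0.813). Ppara, the receptor that drives fatty acid oxidation, was at 2.81, 2.73 and 2.55 FPKM against 2.23, 2.39 and 2.47 FPKM in WT. These groups did not overlap (log2 fold change 0.14, SE 0.086, adjusted p = 0.565). Pparg, the adipocyte form, was at 0.10 to 0.16 FPKM in libraries labelled cKO and 0.03 to 0.16 FPKM in WT, and Vdr, the vitamin D receptor, at 0.06 to 0.10 FPKM in libraries labelled cKO and 0.04 to 0.12 FPKM in WT. The microglial markers summed to 9.03 to 23.03 FPKM in libraries labelled cKO and 16.7 to 18.0 FPKM in WT, with 3 to 7 of 10 at or above 1 FPKM per library.

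PPAR target genes had 8 higher and 9 lower means of 17 tested, with a median of -0.0033, or -0.057 without the replicate 2 labelled cKO. None passed, and only catalase was without overlap, on the higher side, beside 7.07% of all tested genes. Cat had means of 77.4 (labelled cKO) and 61.2 (WT) FPKM (adjusted p = 0.186, log2 fold change 0.33), the acyl-CoA dehydrogenase Acadl 122 (labelled cKO) and 135 (WT) FPKM, and the trifunctional protein subunit Hadhb 196 (labelled cKO) and 182 (WT) FPKM. Liver X receptor targets, reached through dimers with Rxra or Rxrb, had higher means in 11 of 14 tested genes with a median of 0.094, beside 44.5% of all tested genes. None passed, and 5 were higher without overlap, beside 7.07% of all tested genes. Cyp7b1, an oxysterol hydroxylase, was at 9.92, 8.94 and 10.2 FPKM in libraries labelled cKO and at 6.69, 6.17 and 7.02 FPKM in WT (log2 fold change 0.49, adjusted p = 0.126). The lysosomal cholesterol carrier Npc2 averaged 94.4 (labelled cKO) and 77.7 (WT) FPKM (adjusted p = 0.267), the sterol exporter Abcg1 4.51 (labelled cKO) and 3.34 (WT) FPKM (adjusted p = 0.363), and Apoe, the main lipoprotein of glia, 4689 (labelled cKO) and 3932 (WT) FPKM (adjusted p = 0.489).

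The estrogen-related receptors, orphan regulators of mitochondrial genes, were led by Esrra at 25.3, 29.3 and 26.7 FPKM in libraries labelled cKO and 27.8, 23.8 and 26.5 FPKM in WT (log2 fold change 0.057, adjusted p = 0.822). Esrrb, known from pluripotent stem cells, was at 1.53, 0.84 and 0.87 FPKM against 0.98, 0.56 and 0.95 FPKM in WT, so that only the replicate 1 labelled cKO exceeded 1 FPKM. Esrrg was at 0.62 to 0.82 FPKM in libraries labelled cKO and 0.66 to 0.86 FPKM in WT. The NR4A receptors act without a classical ligand and are induced quickly by stimuli. Nr4a2 was at 1.91, 2.97 and 2.63 FPKM in libraries labelled cKO and at 2.10, 2.90 and 2.34 FPKM in WT, in overlapping groups (adjusted p = 0.975). Nr4a3 was at 0.45, 0.50 and 0.34 FPKM against 0.91, 1.55 and 0.45 FPKM in WT. It was highest in WT replicate 2, and WT replicate 3 lay within the libraries labelled cKO.

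Coregulators, the proteins through which these receptors act on chromatin, had lower means in 23 of 27 tested genes, with a small median of -0.036, beside 55.5% of all tested genes lower. None passed, and 3 were lower without overlap, a share near the 10.2% of all tested genes. Carm1, an arginine methyltransferase coactivator, was at 18.8, 19.9 and 20.5 FPKM against 22.95, 22.7 and 22.4 FPKM in WT (log2 fold change -0.19, adjusted p = 0.244). Bcl11a, a partner of COUP-TF proteins also known as CTIP1, averaged 1.77 (labelled cKO) and 2.42 (WT) FPKM (adjusted p = 0.283), and Lcorl 4.52 (labelled cKO) and 5.59 (WT) FPKM (adjusted p = 0.432). The coregulator median changed sign after adjustment for the Y-linked share (0.081) and against WT replicate 3 alone (0.025).

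**Figure D4:**
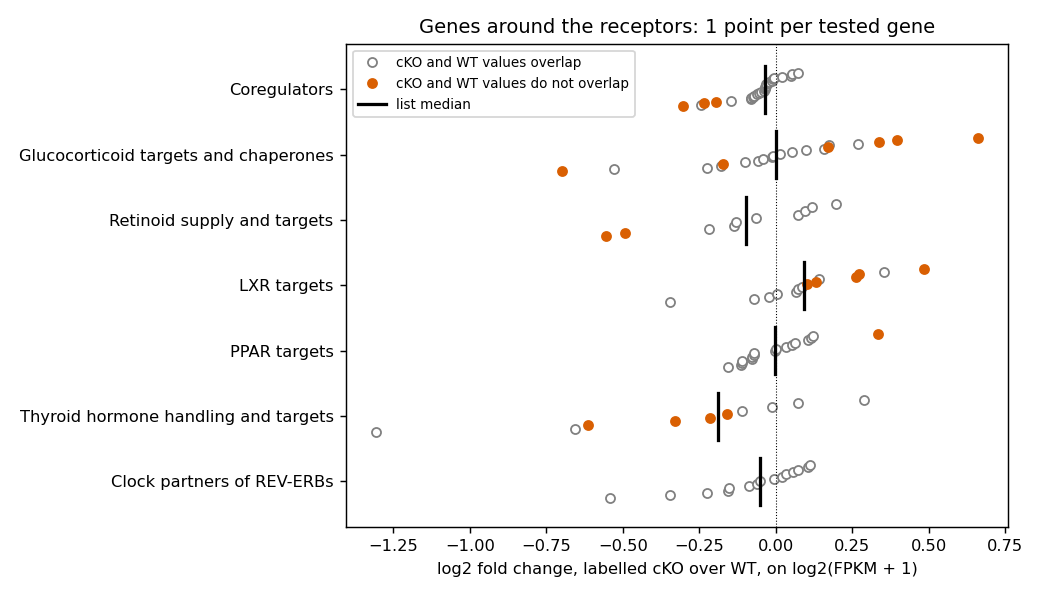
Log2 fold change (libraries labelled cKO over WT, x axis) of each tested gene in 7 lists around the receptors (rows), with filled points where the values of the groups do not overlap and a bar at the list median. The thyroid hormone list has the lowest median (-0.19) and the liver X receptor (LXR) targets the highest (0.094).

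The libraries also differed among themselves in ways that crossed the groups. WT replicate 2 held the highest value of 5 of the 23 tested receptors and the lowest value of 7, and the replicate 2 labelled cKO held the highest of 5 and the lowest of none. Among the tested receptors Rara varied most within groups (SD 0.31 on the log2 scale), followed by Rarb (0.23) and Nr2f6 (0.21). Markers of vessel and connective tissue cells, which include cells that use Nr2f2, were low. Of 6 endothelial markers 2 had a row in the table, Flt1 and Kdr. Their sum was 0.58 to 0.95 FPKM in libraries labelled cKO and 0.96 to 1.54 FPKM in WT, nearly all from Flt1. Flt1 was higher in WT, at 0.92 to 1.46 FPKM against 0.55 to 0.90 FPKM in libraries labelled cKO. Kdr was at most 0.08 FPKM and overlapped between groups. Of 7 mural and fibroblast markers 4 had a row, with sums of 3.60 to 5.40 FPKM in libraries labelled cKO and 3.94 to 4.47 FPKM in WT, nearly all from Pdgfrb. Of 7 neuroblast and neuron markers 2 to 3 per library were at or above 1 FPKM, and Dcx was at most 0.47 FPKM. Their sums overlapped, at 77.6 to 91.9 FPKM in libraries labelled cKO and 78.2 to 84.2 FPKM in WT. Most of each sum came from Map2, which averaged 75.6 (labelled cKO) and 76.4 (WT) FPKM. Tubb3, a tubulin of neurons, was at 5.40, 5.09 and 4.95 FPKM in libraries labelled cKO and at 4.53, 3.46 and 4.06 FPKM in WT, higher without overlap as Nr2f2 was (adjusted p = 0.279). Its part in the value of Nr2f2 was not tested.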

How the data were processed

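The authors deposited FPKM values, 1 per gene and library with 2 decimals, per the file headers. The submitters' processing notes name Bowtie2 and GRCm38 (mm10), and the labels' protocols name a BGISEQ service. The sources used here do not name the counting tool, annotation, strand setting or filters. FPKM carries no read totals. Steps between low values of short genes gave whole fragments for at most 53.3% of the values used (tolerance 0.1 fragment), so depth is unknown and no count model was run.

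The filter kept 11596 genes (mean over the 6 libraries of 1 FPKM or more), 23 of them receptors, on the scale log2(FPKM + 1). Fold changes on this scale understate those of low genes. The test was limma's (version 3.58.1, R 4.3.3), two-sided and with an intensity trend in eBayes. The procedure was also run on simulated data. Their noise was independent between libraries and held no Y-linked difference, so that run does not bear on the difference seen here. All tested genes entered the Benjamini-Hochberg adjustment. The receptors, the lists and the alternatives were chosen with earlier results of these data known, and list medians and counts carry no test. Receptors given in full are those past the threshold or with unadjusted p under 0.05, the 3 of highest mean and the 3 of largest log2 fold change. Of each list the 4 genes of lowest p are named, except a few genes that, like 1 receptor, count in the totals but are not reported here by name. All 31 receptors were found in RefSeq (GRCm38.p6), which gave positions. It listed promoters for 28. Exon overlaps come from GENCODE M21. Alternatives were other pseudocounts, filters and scalings, no trend, weighting of libraries, a replicate block, a term for the Y-linked share, and leaving out libraries. Figures were drawn with matplotlib 3.10.9.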

Additional observations from a re-analysis of the deposited data

How the results depend on the processing

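No receptor passed an adjusted p of 0.05 under any of the 17 alternatives run. The lowest adjusted p was 0.0715, for Nr2f2 with library weights. The number with an unadjusted p under 0.05, 3 as reported, was 5 with no filter, 6 with library weights, 7 with the replicate block, 0 with a term for the Y-linked share, 1 against WT replicate 3 alone, and 1 to 5 when single libraries were left out. The number without overlap between groups, 4 as reported, was 1 among genes of at least 5 FPKM, 7 with median scaling, 10 against WT replicate 3 alone, and 5 to 10 when single libraries were left out. Fewer libraries make overlap rarer by construction. Among the alternatives, shares of all tested genes were taken only for overlap with median scaling (9.94% higher and 7.55% lower). The other counts have no such share beside them and are not read as results about the receptors. The median log2 fold change of 0.015 was 0.097 with that term, 0.058 against WT replicate 3 alone, and -0.033 to 0.048 when single libraries were left out. Over all genes 3 passed as reported, against 0 with no filter, quantile scaling, no trend or that term, 129 with library weights, 22 with the replicate block and 0 to 10 when single libraries were left out. For the other moves the cause was not tested.

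Nr2f2 kept its direction under all alternatives in which it was tested, at 0.33 to 0.53. With that term Nr1d1 (0.20), Nr2f1 (-0.13) and Rara (0.52) reversed. Thra, near 0, was 0.021 with median scaling, 0.000078 with library weights, 0.27 with that term, 0.060 against WT replicate 3 alone, and -0.12 to 0.075 when single libraries were left out. Of the 23 receptors 9 kept their sign in every alternative that tested them. Deviations of same-numbered libraries correlated at -0.043, 0.30 and 0.26 over genes, and those of differently numbered libraries at -0.40 to 0.17. The values 0.30 and 0.26 were thus the highest of all pairs. The labels do not say that the numbers mark a shared litter or day. For that reason the numbers were not taken as pairs in the main fit, and the replicate block was run as an alternative.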
